A study of Mus musculus with 40 samples.

Results

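The comparison described here sets mouse neural stem cells that had received 4-hydroxytamoxifen (4-OHT) for 18 h against cells that had received the vehicle for 18 h. It was defined by array titles: the 3 arrays named for 4-OHT at 18 h (replicate letters A, B and C) and the 3 named for vehicle at 18 h (A, B and C), which is 6 of the 40 arrays in the series. The rest of the arrays cover the same pair of agents at 6, 12, 24, 48, 96 and 144 h. Expression was measured as fluorescence intensity of biotin-labelled RNA on Illumina bead arrays.

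The 4-OHT group was treated with 250 nM 4-OHT in ethanol and the vehicle group with ethanol alone. Both groups were primary cells from the telencephalon of E13.5 embryos of the 129/Svj;C57Bl/6 hybrid strain, grown on laminin in medium containing 20 ng/ml of FGF-2 and of EGF. Both carried floxed alleles of the targets (Id1L/L and Id2L/L), lacked Id3 (Id3-/-) and held the transgene Rosa-Cre-ER. The vehicle cells are therefore no wild-type reference: they too lack Id3 and carry the floxed Id1 and Id2 alleles and the Cre-ER recombinase. The recombinase sits at the Rosa locus, which is active in nearly all cell types, so deletion is not restricted to a cell type within the culture, and 4-OHT is itself a ligand of oestrogen receptors. The labels do not say whether the replicates were separate cultures or animals. The main test was a model fitted to the arrays of all times in the series. Its standard errors (SE) and p-values rest on residual spread pooled over those times, not on the pairs of this comparison alone. They measure the spread among the arrays of this series only, and some of it may be technical.

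Id proteins are helix-loop-helix proteins without a basic, DNA-contacting region. They pair with the E proteins and so keep those and their tissue-specific basic helix-loop-helix (bHLH) partners from binding E-boxes, the short motif CANNTG. In the embryonic brain they are known for holding neural stem cells in an undifferentiated, adherent state. RAP1, a small GTPase that RAP1GAP switches off, is known for promoting integrin-mediated adhesion.

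Between 15884 and 18767 probes were detected on the 6 arrays, and 2 arrays of a group correlated at 0.954 to 0.994. No pair of arrays held identical intensities. Of 14 neural stem cell markers with a probe, 12 were tested and 10 of these were detected on all 6 arrays, whereas 0 of 9 microglia and blood markers with a probe reached the level required for testing. Deviations from the group means correlated between the 4-OHT and vehicle arrays of a letter, at 0.592 for A, 0.367 for B and 0.783 for C. The 4-OHT array of B correlated more with the vehicle array of A (0.636) than with that of its own letter, and letter C was opposed to both. Deviations within a group sum to 0, so where A and B go together C must go the other way. The opposition of C is therefore no separate observation. Array numbers in the labels put A and B in another series than C, and the labels do not say what such a series stands for. The replicate letter was a block in the test, as the comparison was defined: each 4-OHT array was set against the vehicle array of its own letter.

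At 18 h, 136 of 21740 probes were called, that is, passed an adjusted p under 0.05 (limma with the replicate block, Benjamini-Hochberg adjustment over all probes tested, two-sided), which is 0.626% of the probes. Of these, 70 (0.322%) were higher with 4-OHT and 66 (0.304%) were lower, for 59 and 54 genes, and 9 called probes carried no gene symbol. All 136 had the same sign in each letter, as 30.2% of all probes tested did, and for 111 of the 136 the 3 values with 4-OHT did not overlap the 3 with vehicle, against 7.22% of all probes. Without the block 17 probes (0.0782%) were called, and all 17 were among the 136. At an unadjusted p under 0.05 there were 1772 probes (8.15%) with the block and 640 without it. The median absolute log2 difference of the called probes was 0.9, and 35 were over 2-fold higher and 11 over 2-fold lower. Of 90 further tested probes of the called genes that were not called, 86 had the sign of the called probe.

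**Figure D1:**
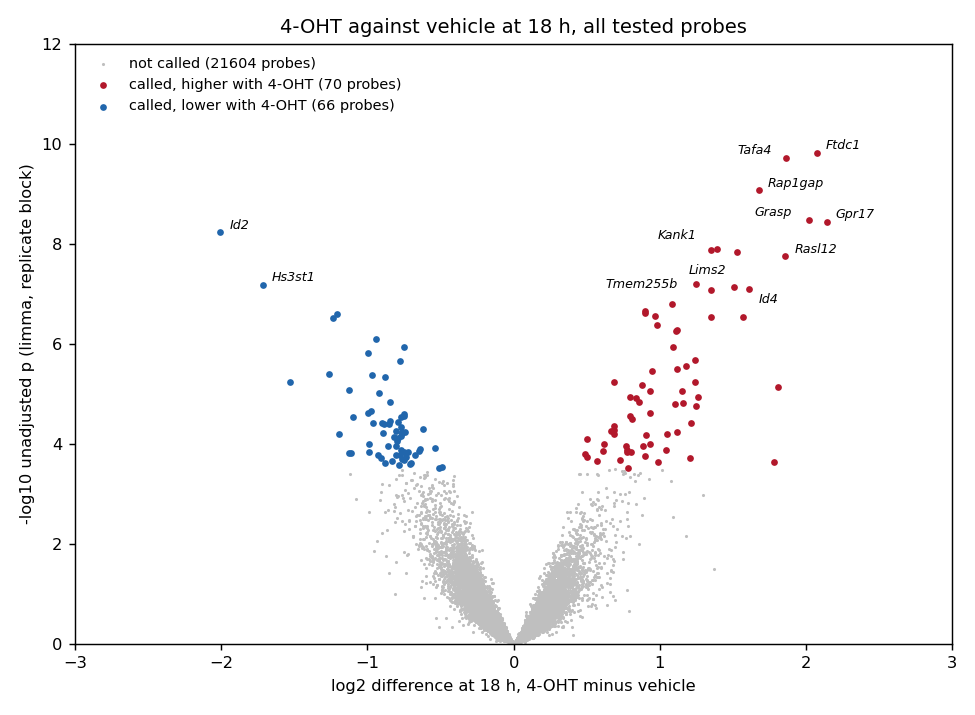
Each point is 1 of 21740 tested probes, with the log2 difference at 18 h, 4-OHT minus vehicle, on the x axis and -log10 of the unadjusted p on the y axis. The 70 probes called higher reach 2.14 (Gpr17), and the 66 called lower reach -2.01 (Id2).

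Id2, a target of the deletion, had the lowest difference of all called probes. Its probe ILMN_1228557 read 7.12, 6.94 and 7.77 with 4-OHT (letters A, B and C, log2 normalized intensity, the scale of all levels given here), against 9.04, 9.53 and 9.28 with vehicle. The 3 values with 4-OHT lay far below the lowest vehicle value. The difference was -2.01 ± 0.22 (n = 3 pairs, adjusted p = 2.12e-05), 4.02-fold lower. Here and below, ± gives the SE of the model fitted to all times, not the spread of the 3 pairs. A second probe, ILMN_2887239, fell by 1.53 (adjusted p = 0.00308), with a call that was lost without letter A (-1.29, adjusted p = 0.0853) or without letter B (-1.42, adjusted p = 0.0707). The remaining probe, ILMN_1236868, was not called (0.64 ± 0.44, adjusted p = 0.797): it read 7.37, 7.29 and 8.87 with 4-OHT and 7.27, 7.24 and 7.11 with vehicle, so that letter C alone was high.

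Id1, the other floxed gene, read 6.14, 6.24 and 6.4 with 4-OHT and 6.89, 6.57 and 7.21 with vehicle. The groups did not overlap, but the difference of -0.63 ± 0.23 was not called (adjusted p = 0.346). The Id3 probe was not detected on enough arrays to be tested, and read 4.35, 4.49 and 4.3 with 4-OHT and 4.58, 4.82 and 4.56 with vehicle. By the looser detection limit of 0.05 it was above background on 0 of 3 arrays with 4-OHT and on 3 of 3 with vehicle, without overlap, although the labels give Id3-/- for both groups. What the probe reads in these cells was not tested. Id4, the family member that was not targeted, rose. Its probe ILMN_2678714 read 5.97, 5.65 and 6.57 with 4-OHT, against 4.27, 4.28 and 4.8 with vehicle. Each 4-OHT array lay above every vehicle array, and the difference was 1.61 ± 0.21 (3.06-fold, adjusted p = 0.000123). At the detection limit of 0.05 this probe was above background on 3 of 3 arrays with 4-OHT but on 1 of 3 with vehicle. The vehicle level was thus near the floor, and the fold is imprecise. The other Id4 probe was not above background in either group. Of 19 tested members of the wider Id and bHLH list, Id2 and Id4 were called, beside 0.626% of all probes, and 17 were not. Among those, Hes5, a Notch-driven repressor, had 0.66 ± 0.34 (adjusted p = 0.661), with 1.8 in letter C and 0.19 and -0.01 in A and B.

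**Figure D2:**
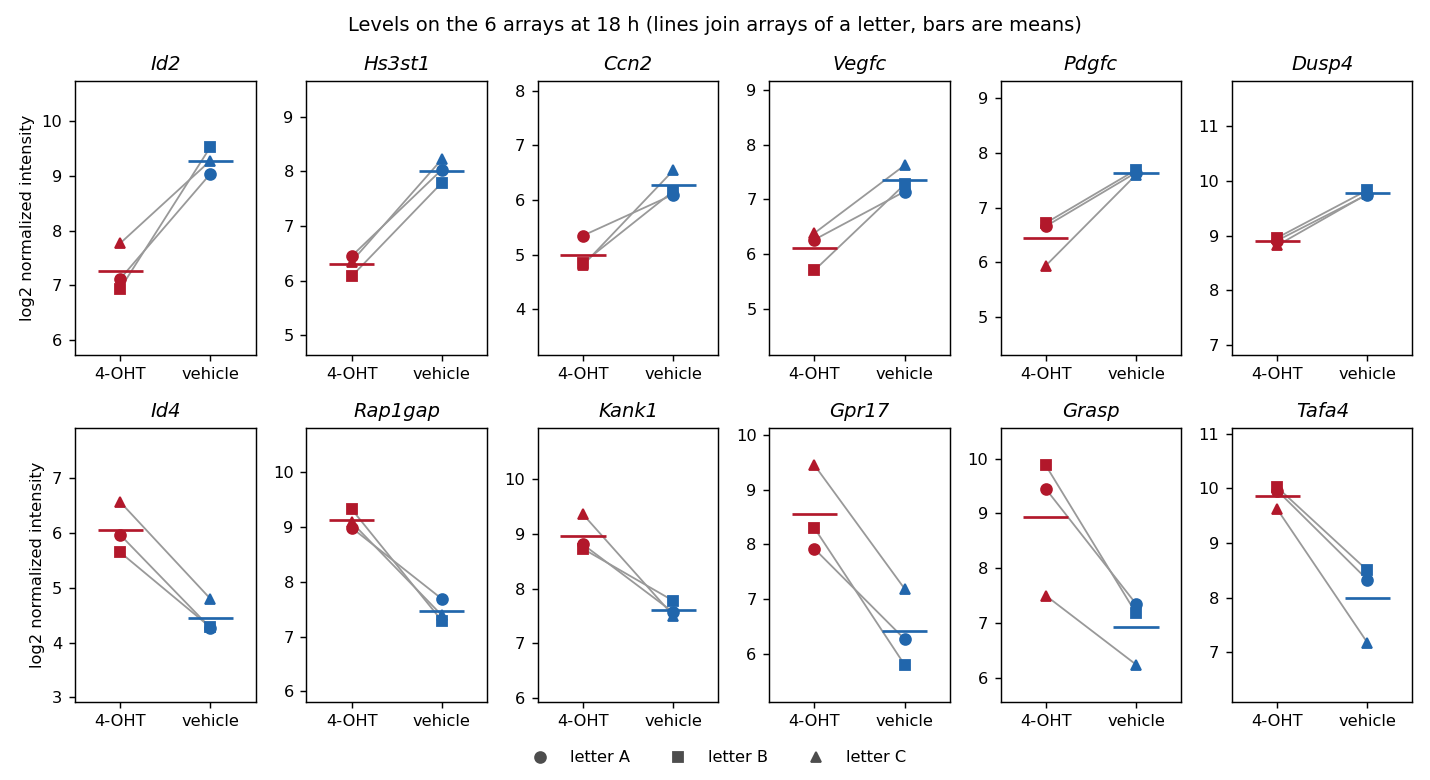
Log2 normalized intensity of 12 called genes on the 3 arrays with 4-OHT (left in each panel) and the 3 with vehicle (right). Each panel spans the same range, symbols mark letters A, B and C, grey lines join arrays of a letter and bars are means; in Gpr17 the arrays of C are the highest of both groups, and in Grasp they are the lowest.

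Of 42 tested RAP1 regulators and integrin adhesion genes, 4 were called higher (Rap1gap, Lims2, Kank1 and Itga9), beside 0.322% of all probes, and 0 were called lower, while the median of the list was -0.07 beside 0 over all probes. The list was drawn up around Rap1gap with results of this series known, so its count is no independent evidence. The count was 2 without the block and 2 with arrays scaled to a common median. Rap1gap, which turns RAP1 off, read 8.99, 9.33 and 9.09 with 4-OHT on its probe ILMN_1227577, against 7.69, 7.29 and 7.39 with vehicle. The groups lay more than a log2 unit apart, with a difference of 1.68 ± 0.17 (3.2-fold, adjusted p = 6.13e-06). The other tested Rap1gap probes were not called, at 0.56 ± 0.15 (adjusted p = 0.131) and 0.26 ± 0.19 (adjusted p = 0.822), with levels of at most 5.31 in any array.

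Kank1, an adaptor that joins integrin adhesions to the microtubule cortex, read 8.81, 8.73 and 9.36 with 4-OHT, against 7.57, 7.78 and 7.51 with vehicle. It rose by 1.35 ± 0.16 (adjusted p = 3.55e-05). Itga9, the integrin alpha 9 subunit, read 9.35, 9.47 and 7.42 with 4-OHT on ILMN_1242427, against 7.84, 7.76 and 6.9 with vehicle. Here the groups overlapped, since both arrays of letter C were low. The difference was 1.24 ± 0.23 (adjusted p = 0.00691), and the call was lost without letter A (1.11, adjusted p = 0.11) or letter B (1.01, adjusted p = 0.229). Lims2, an adaptor of the integrin-linked kinase complex, was called on 3 probes, with differences of 1.53, 1.39 and 1.22. The lowest of these lost its call without letter A (adjusted p = 0.0869) or letter C (adjusted p = 0.284). Lims2 overlaps the called gene Gpr17 in the annotation, and the array does not tell which gene a shared stretch of RNA came from. Lims2 is also counted in the oligodendrocyte list below. Members with values below 0 included Itga5, the fibronectin receptor subunit (-0.73 ± 0.28, adjusted p = 0.412), and Rapgef5, an activator of RAP1 (-0.66 ± 0.17, adjusted p = 0.0769), neither of which was called.

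Oligodendrocyte lineage genes were the marker list with the highest median, 0.29 over 21 tested members, of which 18 had a positive difference and 3 were called higher (Gpr17, Lims2 and Cnp), beside 0.322% of all probes. Like the other lists, it was drawn up with results of this series known, so its counts and median are no independent evidence. Gpr17, a G protein-coupled receptor found on differentiating oligodendrocyte precursors, read 7.92, 8.3 and 9.45 with 4-OHT, against 6.27, 5.8 and 7.19 with vehicle. All 4-OHT arrays exceeded all vehicle arrays, and the arrays of letter C were the highest of their groups. The difference of 2.14 ± 0.23 (4.41-fold, adjusted p = 1.59e-05) was the highest of all called probes. Lims2 on ILMN_2738345 read 7.07, 6.86 and 8.35 with 4-OHT and 5.93, 5.42 and 6.75 with vehicle, again with letter C high in both groups. Gpr17 and Lims2 overlap each other in the annotation, and the array does not tell which of these genes a shared stretch of RNA came from. Cnp, a myelin enzyme of oligodendrocytes, read 8.9, 8.89 and 9.24 with 4-OHT, against 7.92, 7.95 and 7.72 with vehicle, without overlap. Its difference was 1.15 ± 0.2 (adjusted p = 0.00421), and without letter C it was 0.96 (adjusted p = 0.13). Sox8, a transcription factor of glia, had 1.18 ± 0.39 and was not called (adjusted p = 0.286). Nkx2-2, a factor of oligodendrocyte precursors, had -0.52 ± 0.19 (adjusted p = 0.352).

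The oligodendrocyte median differed between letters, at 0.16 in A, 0.09 in B and 0.64 in C. The summed linear level of the list ran from 19790 to 25420 with 4-OHT and from 17140 to 19210 with vehicle, without overlap. Among the other lists, the sums of cholesterol synthesis genes did not overlap either (18700 to 18860 with 4-OHT, 20080 to 20230 with vehicle). Nor did those of ependymal and choroid markers (345.9 to 470.5 with 4-OHT, 527.1 to 633.3 with vehicle). A linear sum follows its brightest members. Of the 6 tested ependymal and choroid markers, 2 were detected on all 6 arrays, and 3 had a positive and 3 a negative difference. Otx2 alone read 8.14, 7.85 and 8.27 with 4-OHT and 8.73, 8.65 and 8.9 with vehicle. Of all single probes tested, 7.22% did not overlap either, so these sums are a description only. In RNA from a whole culture, more or fewer cells of a type cannot be told apart from more or less RNA per cell. Without the block Gpr17 (adjusted p = 0.138), Lims2 (0.472 and 0.791 on its leading probes) and Cnp (0.274) were not called.

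Lists for the other cell types had at most 1 called member each, beside 0.322% of all probes called higher and 0.304% called lower. Among neural stem cell markers 0 of 12 were called by limma, with a median of -0.04. The members farthest from 0 were Sox2, a factor that maintains neural progenitors (-0.69 ± 0.23, adjusted p = 0.297), and Hes5. Astrocyte markers had 1 of 13 called, Id4, which also stands in the Id list, and a median of -0.05. Neuron markers had 1 of 13 called: Syt1, the calcium sensor of synaptic vesicles. Its list probe read 9.61, 9.67 and 8.52 with 4-OHT, against 10.44, 10.09 and 9.93 with vehicle, so each 4-OHT array was below every vehicle array. It fell by 0.89 (SE 0.18, adjusted p = 0.0123), and the call was lost without letter A (-0.92, adjusted p = 0.0808) or C (-0.63, adjusted p = 0.316), and with the pair as a random effect (adjusted p = 0.0659). A second Syt1 probe was called at -0.97 (adjusted p = 0.00244), and this call was lost without letter C (-0.76, adjusted p = 0.115). Of 6 tested ependymal and choroid markers Otx2, a homeobox factor, was called at -0.67 ± 0.15 (adjusted p = 0.0316), and this call was lost without any of the letters (adjusted p = 0.125 to 0.369). Only 2 of 14 endothelial, mural and meningeal markers were tested, and neither was called.

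**Figure D3:**
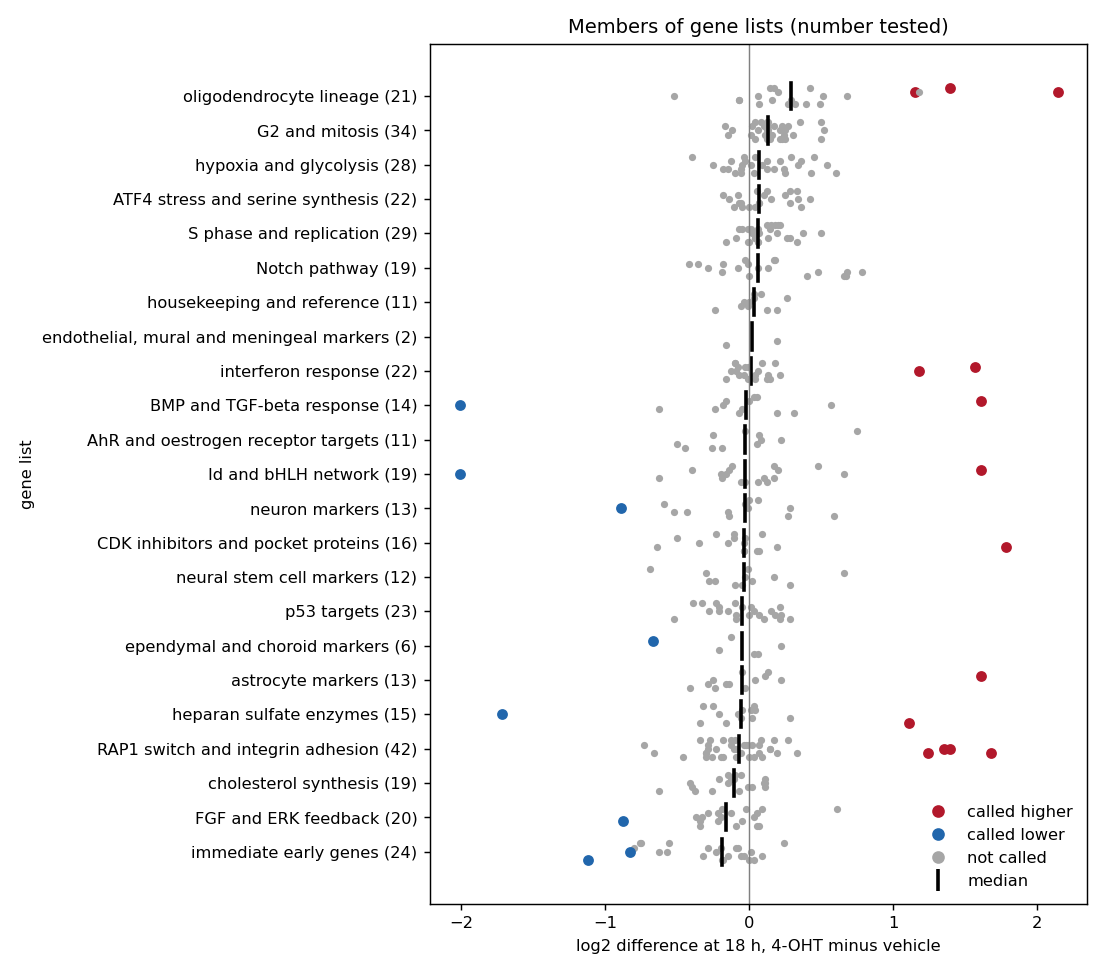
Log2 differences at 18 h, 4-OHT minus vehicle, of the tested members of 23 gene lists, each dot a gene and each black bar a list median. Called members stand mostly alone outside a list whose other members lie near 0; the oligodendrocyte list has the highest median (0.29) and the immediate early genes the lowest (-0.19).

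Of 15 tested heparan sulfate enzymes, 1 was called lower and 1 higher, beside 0.304% and 0.322% of all probes. Hs3st1, which adds the rare 3-O-sulfate to heparan sulfate, read 6.45, 6.08 and 6.35 with 4-OHT, against 8.03, 7.79 and 8.22 with vehicle, a wide gap in every letter. The difference was -1.72 ± 0.22 (3.29-fold lower, adjusted p = 0.000119). Glce, the epimerase that turns glucuronic into iduronic acid in heparan sulfate, went the other way: it read 9.31, 9.01 and 8.65 with 4-OHT and 8.05, 8.14 and 7.45 with vehicle, a difference of 1.11 ± 0.16 (adjusted p = 0.000457). The other 13 tested heparan sulfate enzymes were not called, and the median of the list was -0.06.

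Vegfc, a growth factor of lymphatic endothelium, read 6.26, 5.7 and 6.38 with 4-OHT, against 7.14, 7.27 and 7.62 with vehicle. It fell by 1.23 (SE 0.17, adjusted p = 0.000289). Pdgfc, a ligand of the PDGF receptor alpha, read 6.66, 6.72 and 5.94 with 4-OHT and 7.64, 7.69 and 7.6 with vehicle, and fell by 1.21 (SE 0.17, adjusted p = 0.000289). In both genes the groups were apart, and both calls held without each letter in turn. Adamts1, a secreted metalloprotease, fell by 1.1 (adjusted p = 0.00999), a call that was lost without any of the letters (adjusted p = 0.0787 to 0.122).

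Among genes that respond to growth factor signals, 3 list members were called lower. Dusp4, a phosphatase that ERK induces and that inactivates it, read 8.91, 8.96 and 8.82 with 4-OHT, against 9.75, 9.83 and 9.76 with vehicle, with little spread in either group. It fell by 0.88 (SE 0.15, adjusted p = 0.00266), and was the only one of 20 tested FGF and ERK feedback genes to be called (list median -0.16), beside 0.304% of all probes called lower. A second Dusp4 probe fell by 0.89 (adjusted p = 0.016), with a call that was lost without letter A (adjusted p = 0.0532) or C (adjusted p = 0.349).

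Of 24 tested immediate early genes, which serum and growth factors switch on within minutes, 20 had a negative difference and 2 were called lower, beside 0.304% of all probes. The median of the list was -0.19 (-0.07 in A, -0.2 in B and -0.55 in C), beside -0.001 over all probes. Arc, a regulator of synaptic strength, read 7.09, 6.9 and 5.37 with 4-OHT and 7.85, 7.97 and 6.89 with vehicle. The groups overlapped, since the vehicle array of C was lower than the 4-OHT arrays of A and B, and the difference was -1.12 ± 0.25 (adjusted p = 0.0299, and 0.239 with the pair as a random effect). Klf2, a zinc finger factor, had -0.83 ± 0.19 (adjusted p = 0.0372). Both calls were lost without any of the letters, with adjusted p values of 0.0685 to 0.353 for Arc and 0.129 to 0.307 for Klf2, so that 0 of the 24 were then called by limma. Ccn2, a matricellular protein, was called on ILMN_1238215, which read 5.35, 4.85 and 4.81 with 4-OHT, against 6.1, 6.16 and 6.54 with vehicle. The groups did not overlap (-1.26 ± 0.21, adjusted p = 0.00237), but the call was lost without letter C (-1.03, adjusted p = 0.106). The brighter Ccn2 probe that stands for the gene in the list had -0.8 ± 0.24 (adjusted p = 0.193).

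Among the cell cycle lists Cdkn1c was the only called gene, beside 0.322% of all probes called higher. Cdkn1c, the CDK inhibitor p57, read 8.96, 9.76 and 7.98 with 4-OHT, against 7.31, 6.99 and 7.06 with vehicle. All 4-OHT arrays were above all vehicle arrays, but they spread widely, and the difference was 1.78 ± 0.39 (adjusted p = 0.0396). The call was lost without letter A (1.84, adjusted p = 0.148) and without letter B (1.28, adjusted p = 0.617). It was lost in 7 of 15 alternatives in all. The others were no block (adjusted p = 0.529), the authors' log2 values (0.0623), an offset of 50 (0.0644), no filter on dim probes (0.149) and leaving out a dim vehicle array of 6 h (0.0531). The 15 other CDK inhibitors, cyclins D and pocket proteins tested were not called, and limma called 0 of 29 S phase genes (median 0.06), 0 of 34 genes of G2 and mitosis (median 0.13) and 0 of 23 p53 targets (median -0.05). Of the S phase genes 23 had a positive and 6 a negative difference, and of the G2 and mitosis genes 31 and 3. With arrays scaled to a common median, in place of quantile normalization, the median over all probes shifted by -0.098 and the S phase median was -0.07, so the sign of that small value depends on the scaling. The same holds for the Notch, ATF4, hypoxia, interferon and housekeeping medians given here, which were -0.02, -0.07, -0.04, -0.05 and -0.09 with that scaling.

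Further pathway lists had few called members. The interferon list had 2 of 22 called higher, beside 0.322% of all probes: Rsad2, the antiviral enzyme viperin, and Irf4, a lymphoid transcription factor. Rsad2 read 7.79, 7.55 and 7.97 with 4-OHT, against 6.38, 6.1 and 6.13 with vehicle, and rose by 1.57 ± 0.22 (adjusted p = 0.000289). Irf4 had 1.18 ± 0.19 (adjusted p = 0.00183), and 1.09 without letter B, where the call was lost (adjusted p = 0.0506). Its probe was above background on 1 of 3 vehicle arrays. The other 20 members, among them the interferon-induced Bst2 (0.21), Ifit3 (0.18) and Ifitm3 (-0.16), were not called, and the median was 0.01.

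None of the Notch pathway genes was called (0 of 19, median 0.06). Farthest from 0 were Mfng, which glycosylates Notch (0.78 ± 0.25, adjusted p = 0.228), the ligands Dll3 (0.68 ± 0.22, adjusted p = 0.228) and Dll1 (0.67 ± 0.2, adjusted p = 0.196), and the target Hes5. In the BMP and TGF-beta list, whose response genes include the Id genes themselves, Id2 and Id4 were the called members of 14, beside 0.626% of all probes. Bmp7, a ligand in this list, had 0.57 ± 0.14 (adjusted p = 0.0575). Targets of the oestrogen receptors, which bind 4-OHT, and of the aryl hydrocarbon receptor had 0 of 11 called and a median of -0.03. Cholesterol synthesis (19 genes, median -0.11), ATF4 stress (22 genes, 0.07) and hypoxia and glycolysis (28 genes, 0.07) also had 0 called by limma, as did the housekeeping genes (11 genes, 0.03).

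The remaining genes named by size spanned several functions. Ftdc1 read 6.26, 6.01 and 6.66 with 4-OHT, against 4.29, 4.24 and 4.19 with vehicle, where it was not above background on any array. It was at least 3.41-fold higher with 4-OHT (adjusted p = 2.08e-06), a lower bound computed against the dimmest level detected on each vehicle array. Tafa4, a secreted chemokine-like peptide, read 9.96, 10.02 and 9.62 with 4-OHT and 8.33, 8.5 and 7.18 with vehicle, and rose by 1.86 ± 0.17 (adjusted p = 2.08e-06).

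Grasp, a scaffold that binds metabotropic glutamate receptors, read 9.45, 9.88 and 7.5 with 4-OHT, against 7.35, 7.18 and 6.24 with vehicle. Letter C was low in both groups, yet its 4-OHT array still exceeded every vehicle array, and the difference was 2.02 ± 0.22 (adjusted p = 1.59e-05). Rasl12, a small GTPase of the Ras family, read 7.49, 8.15 and 7.51 with 4-OHT, against 6.2, 5.94 and 5.45 with vehicle, and rose by 1.86 ± 0.22 (adjusted p = 3.83e-05). Dpp10, an auxiliary subunit of voltage-gated potassium channels, rose by 1.35 ± 0.19 (adjusted p = 0.000289), and Tmem255b by 1.24 ± 0.16 (adjusted p = 0.000119). The Tmem255b probe was above background on 1 of 3 vehicle arrays. Cd82, a tetraspanin, was called at 1.26 ± 0.23 (adjusted p = 0.0051), and lost the call without letter A (adjusted p = 0.0971) or B (adjusted p = 0.0678).

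Among the lower genes, Atp1b2, the beta 2 subunit of the sodium pump, differed more between letters than between agents. It read 6.67, 6.47 and 9.51 with 4-OHT and 7.54, 7.82 and 10.29 with vehicle. Letters A and C differed by more than 2 log2 units within a group, while the agents differed by -0.87, -1.34 and -0.78 within letters A, B and C (mean -1 ± 0.16, adjusted p = 0.00111). The call was lost without letter B (-0.82, adjusted p = 0.0577). Dgkk, a diacylglycerol kinase, had the same form: 7.21, 6.9 and 9.05 with 4-OHT against 8.08, 7.94 and 10.12 with vehicle, a difference of -0.99 ± 0.19 (adjusted p = 0.00914) that lost its call without any of the letters (adjusted p = 0.0532 to 0.119). Without the block neither was called (adjusted p = 1 for both), nor with the pair as a random effect (adjusted p = 0.605 for Atp1b2 and 0.37 for Dgkk).

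Akap12, a scaffold of protein kinase A, read 9.9, 9.71 and 10.37 with 4-OHT and 10.69, 11.19 and 11.67 with vehicle (-1.19 ± 0.24, adjusted p = 0.0163). The call was lost without letter B (-1.05, adjusted p = 0.315) or C (-1.14, adjusted p = 0.184). Rerg, a Ras-like growth inhibitor, had -1.13 ± 0.2 (adjusted p = 0.00409) and lost its call without letter A (adjusted p = 0.0536) or C (adjusted p = 0.106). Iqsec2, an exchange factor for the small GTPase ARF6, had -1.13 ± 0.25 (adjusted p = 0.0299) and lost its call without letter B (adjusted p = 0.507) or C (adjusted p = 0.26). Of the 41 called probes of the genes named by rule, 10 were called under every alternative tried: the leading probes of Id2, Id4, Rap1gap, Hs3st1, Vegfc, Pdgfc, Ftdc1, Tafa4, Rasl12 and Tmem255b. Without the block 27 of the 41 were not called, and with median scaling 15 were not, Kank1 (adjusted p = 0.416), Glce (0.876), Dusp4 (0.746) and Cnp (0.822) among them.

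**Figure D4:**
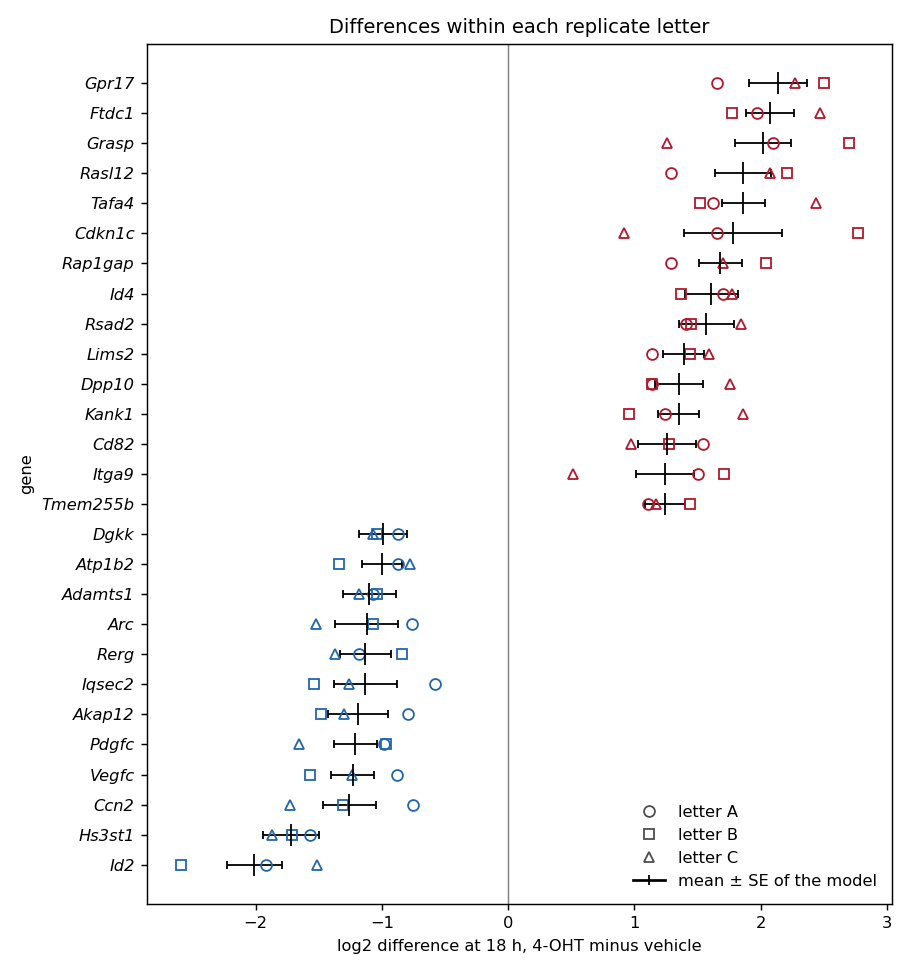
Log2 difference at 18 h, 4-OHT minus vehicle, within letters A, B and C (open symbols) for the 15 highest and 12 lowest called genes, with the model's mean ± SE in black. Every symbol lies on the side of 0 of its gene's mean, as the choice of these genes required. Cdkn1c (0.92 to 2.77), Itga9 and Grasp spread most among the higher genes.

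Other called genes, picked from the 136 probes after their values were seen, have known functions. They are given as single genes, with no count of such genes tested and without their calls under the alternatives. Of all 136 called probes, 66 kept the call without letter A, 53 without B and 51 without C. Nkd1, an intracellular antagonist of Wnt signals (0.88, adjusted p = 0.00345), and Kremen1, a DKK receptor (0.81, adjusted p = 0.011), rose. Fzd5, a Wnt receptor (-0.77, adjusted p = 0.0136), Bcl9l, a beta-catenin cofactor (-0.94, adjusted p = 0.000638), and Wls, the carrier of Wnt ligands (-0.49, adjusted p = 0.047), fell. Atp1b1, the beta 1 subunit of the sodium pump, fell by 0.75 (adjusted p = 0.0291), and Dgkz, another diacylglycerol kinase, fell on 2 probes (-0.77 and -0.72). The glutamate receptor genes Grm5 (-0.91, adjusted p = 0.0345) and Grin3a (-0.85, adjusted p = 0.0123) fell. So did Sema3a, a repulsive axon guidance cue (-0.7, adjusted p = 0.0409), and Robo1, the receptor for Slit cues (-0.64, adjusted p = 0.0281).

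Transcription and chromatin regulators outside the lists were also called. Myt1, a zinc finger factor of neural and oligodendrocyte differentiation, rose by 1.12 (adjusted p = 0.000457). E2f2, a cell cycle factor (1.04, adjusted p = 0.0284), had 1.47 in letter A and 1.46 in B but 0.2 in C. Bcl6, a repressor that promotes neurogenesis, rose by 0.97 (adjusted p = 0.000289), and Lmo3, a LIM-only cofactor, on 2 probes (0.76 and 0.73). Mef2c (-0.8, adjusted p = 0.0214), Foxc1 (-0.76, adjusted p = 0.0162), Hlx (-0.86, adjusted p = 0.0248), the coactivator-binding Cited2 (-0.9, adjusted p = 0.0121) and the histone deacetylase Hdac5 (-0.92, adjusted p = 0.00446) fell. Omg, a glycoprotein of oligodendrocyte myelin, rose by 0.79 (adjusted p = 0.0051), and Prkcq, protein kinase C theta, by 1.24 (adjusted p = 0.00146).

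The promoters below are shown because Id proteins act on E-box binding, and because these genes either belong to the Id and RAP1 groups or moved most among the lower genes that were not targeted. Sequences are RefSeq promoter windows on GRCm38.p6, from 250 bases before to 50 after a listed start, written 5′ to 3′ on the gene's strand, with the E-box forms CAGCTG and CACCTG or CAGGTG in capitals. The windows are Id2 at chr12:25096043-25096342, minus strand, Id4 at chr13:48260866-48261165, plus strand, 1 of 7 windows of Rap1gap at chr4:137707217-137707516, plus strand, Itga9 at chr9:118711442-118711741, plus strand, and Hs3st1 at chr5:39644582-39644881, minus strand.
Id2: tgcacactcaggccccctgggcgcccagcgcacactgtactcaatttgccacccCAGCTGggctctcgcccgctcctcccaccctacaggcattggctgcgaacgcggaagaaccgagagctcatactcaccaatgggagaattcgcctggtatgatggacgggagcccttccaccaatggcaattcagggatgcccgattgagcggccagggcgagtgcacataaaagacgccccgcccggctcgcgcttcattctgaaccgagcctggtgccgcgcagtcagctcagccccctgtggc
Id4: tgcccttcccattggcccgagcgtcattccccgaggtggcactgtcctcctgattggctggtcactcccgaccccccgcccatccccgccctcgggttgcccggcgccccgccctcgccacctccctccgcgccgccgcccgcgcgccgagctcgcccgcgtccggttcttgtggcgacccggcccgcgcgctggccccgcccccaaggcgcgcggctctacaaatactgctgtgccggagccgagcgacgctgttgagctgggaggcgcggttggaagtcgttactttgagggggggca
Rap1gap: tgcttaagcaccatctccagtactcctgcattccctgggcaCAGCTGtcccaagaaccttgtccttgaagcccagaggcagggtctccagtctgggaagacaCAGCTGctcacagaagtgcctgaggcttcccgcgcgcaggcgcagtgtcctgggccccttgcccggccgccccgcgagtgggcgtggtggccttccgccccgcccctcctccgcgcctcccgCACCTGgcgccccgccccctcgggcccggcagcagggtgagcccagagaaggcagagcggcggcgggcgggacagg
Itga9: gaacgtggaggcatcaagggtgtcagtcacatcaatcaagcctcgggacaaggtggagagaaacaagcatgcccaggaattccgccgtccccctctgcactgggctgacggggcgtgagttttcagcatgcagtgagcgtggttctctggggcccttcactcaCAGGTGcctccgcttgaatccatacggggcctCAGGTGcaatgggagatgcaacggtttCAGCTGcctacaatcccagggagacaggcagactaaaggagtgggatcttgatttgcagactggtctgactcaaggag
Hs3st1: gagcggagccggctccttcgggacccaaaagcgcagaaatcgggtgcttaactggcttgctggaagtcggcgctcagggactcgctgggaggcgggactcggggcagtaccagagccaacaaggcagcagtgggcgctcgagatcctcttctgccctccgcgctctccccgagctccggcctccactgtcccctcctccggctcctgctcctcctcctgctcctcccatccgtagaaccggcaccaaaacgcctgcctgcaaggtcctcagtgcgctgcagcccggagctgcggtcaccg
The Rap1gap window was picked after its matches were seen, as a window with the most of these forms: it holds 2 CAGCTG and 1 CACCTG, while 3 of the 7 Rap1gap windows, the first listed among them, hold neither form. The other windows shown are the only ones listed for their genes. The Itga9 window holds 1 CAGCTG and 2 CAGGTG, and the Id2 window 1 CAGCTG. In the Id4 and Hs3st1 windows no CANNTG occurred.

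Across the called genes, motifs were counted on both strands in the first window listed for each gene. CAGCTG and CACCTG or CAGGTG are themselves forms of CANNTG, so these counts overlap. CAGCTG was found in 29.5% of the windows of 44 genes called higher and in 14.6% of those of 41 genes called lower, against 14.9% of the windows of 8979 tested genes and 16.1% of all 27025 genes with a window. CACCTG or CAGGTG was found in 27.3% of windows of higher genes and 19.5% of those of lower genes, against 16.9% of tested genes and 20% of all genes. The general form CANNTG stood in 77.3% of windows of higher genes and 56.1% of those of lower genes, against 62.5% of tested genes and 72.1% of all genes. No test was made of these shares. A match in a window is a description of its letters and does not show that a factor binds there.

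The other times place the 18 h differences in the course of treatment. Each time had its own vehicle arrays, so no array is shared with the 18 h comparison. At 144 h each group held 2 arrays (letters A and C), and at every other time 3. The vehicle array of letter C at 6 h was dim, with 12947 probes detected, the fewest of the 40 arrays. Few calls at 6 h therefore do not show that an effect was absent. At 6 h limma called 0 of 21740 probes, and the 70 probes called higher at 18 h had a median of 0.12 and the 66 called lower a median of -0.14. At 12 h their medians were 0.46 and -0.41, and 67 of 70 and 63 of 66 already had the 18 h sign, but 4 were called, all higher. Over all probes 0.023% were called at 12 h, 0.0184% higher and 0.0046% lower. The 4 were both Grasp probes (1.53 and 1.87), Gnaz, a G protein alpha subunit (1.09), and Glce (0.97).

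At 24 h all 136 probes kept the 18 h sign, and 64 of the 70 higher and 32 of the 66 lower probes were called, beside 0.883% and 0.607% of all probes (1.49% in either direction). Medians there were 1.23 and -0.64, against 1.02 and -0.81 at 18 h, where the probes had been chosen. At 48 h 64 of 70 higher and 38 of 66 lower probes were called (1.74% and 1.71% of all probes, 3.45% in all). At 96 h 65 and 45 were called (5.34% and 6.26%, 11.6% in all), and at 144 h 62 and 45 (7.79% and 8.55%, 16.3% in all). The median of the higher probes was 1.48, 1.73 and 1.83 at these times, and that of the lower probes -0.67, -1.01 and -1.02. At 144 h 3 probes that were lower at 18 h were called in the opposite direction: both Syt1 probes (1.24 and 1) and Grin3a (1).

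**Figure D5:**
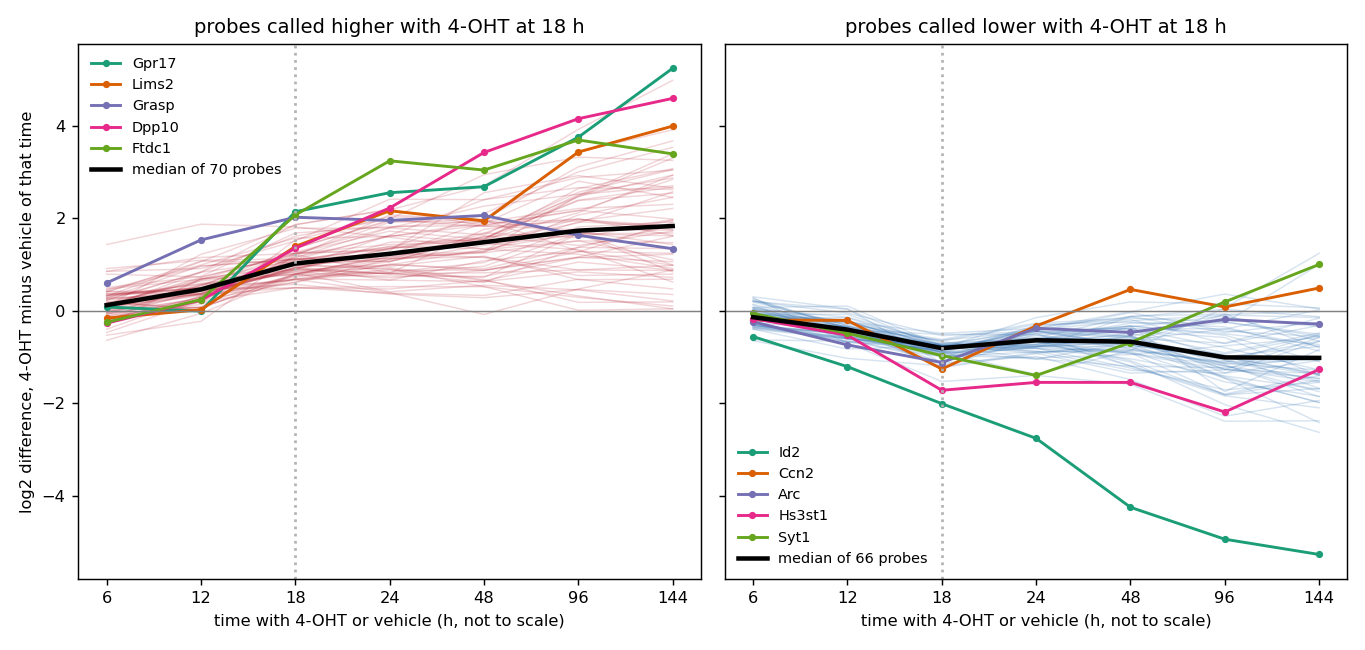
Log2 difference, 4-OHT minus vehicle of the same time, from 6 to 144 h for the 70 probes called higher at 18 h (left) and the 66 called lower (right), with medians in black and single genes in colour. Times are evenly spaced and not to scale, and at 144 h each group held 2 arrays. All arrays of 12 h belong to another series of array numbers than those of 18 h. Gpr17 lies at -0.01 at 12 h, 2.14 at 18 h and 5.24 at 144 h, the Lims2 probe at 0.02, 1.39 and 3.99, and Ccn2 at 0.46 at 48 h, where it was not called.

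Whether the effect itself differed between neighbouring times was tested as a contrast of effects. Between 12 and 18 h limma called 4 probes (0.0184% of 21740), all with a larger effect at 18 h: Gpr17 (2.15, adjusted p = 0.0125), Ftdc1 (1.83, adjusted p = 0.0125) and 2 Lims2 probes (1.52 and 1.37, adjusted p = 0.0242 for both). Their effects at 12 h were -0.01, 0.24, 0.01 and 0.02. Grasp, by contrast, had 0.6 at 6 h, 1.53 at 12 h and 2.02 at 18 h, and the change of its effect between 12 and 18 h was not called. Without letter C, or with both times fitted alone, this contrast called 0 probes. At an unadjusted p under 0.05 it called 948 (4.36%) with all letters. Gpr17 and Lims2 overlap in the annotation, so the 4 probes may not stand for separate changes. All arrays of 12 h belong to another series of array numbers than those of 18 h, so time and series cannot be told apart here. Between 18 and 24 h limma called 0 probes, with 513 (2.36%) at an unadjusted p under 0.05.

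Between 18 and 48 h, a contrast added after the data were seen, 27 probes (0.124%) were called, 18 with a higher (0.0828%) and 9 with a lower (0.0414%) effect at 48 h, and 1369 (6.3%) reached an unadjusted p under 0.05. Among the genes called at 18 h, Id2 went further down (-2.25, adjusted p = 0.00227). Dpp10 (2.07, adjusted p = 0.00167), Slc24a3, a sodium and calcium exchanger (1.2, adjusted p = 0.00327), and Moxd1, a monooxygenase-like protein (1.05, adjusted p = 0.0147), gained. The effect on Ccn2 was -1.26 at 18 h and 0.46 at 48 h, where it was not called (adjusted p = 0.357), and the change of 1.72 was called (adjusted p = 0.013). Without letter B this contrast called 4 probes, and without letter A 5.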

How the data were processed

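Transcript levels were measured on 40 Illumina bead arrays of mouse neural stem cells. The deposited table holds a bead intensity per probe and array on a linear scale that the authors did not normalize, and a detection p-value per probe. The deposited p-value columns were handled as a score, since the 21 probes below hold values over 1 in them. A second deposited set holds log2 values that the authors normalized. GenomeStudio and lumi are named per the submitters' processing notes, and their versions are not given in the sources used here.

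Of 45281 probes, 21 had fields out of step with the header and were left out. Probes were named from the platform annotation: 34872 carried 1 symbol, 18 several and 10370 none. Symbols of 34794 were found with their Entrez identifier in RefSeq for GRCm38.p6, and 0 changed. Probe positions were not used.

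Intensities were background-corrected, quantile normalized and put on the log2 scale with neqc (offset 16) in limma 3.58.1 under R 4.3.3. The test covered probes detected (p-value under 0.01) on 3 or more arrays, which left 21740 probes, 18353 of them with 1 symbol, for 11087 genes. A linear model with 1 mean per pair of time and replicate letter and 1 effect of 4-OHT per time was fitted to all 40 arrays with limma (trend and robust options, 13 residual degrees of freedom, median of 9.84 prior degrees of freedom). All p-values are two-sided, and adjusted ones use the Benjamini-Hochberg method over every probe tested. The pairing by letter comes from the definition of the comparison. The number of arrays limits the precision. The median raw intensity of the 6 arrays at 18 h was 35.6 to 39.5. A probe was taken as not above background in a group where its detection p-value was 0.05 or more on all arrays of the group.

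Named genes are the 15 highest and 12 lowest called genes by log2 difference with the same sign in all letters, each by its called probe of lowest p, all probes of the Id genes and Rap1gap, called members of the gene lists or, in lists with under 2 called members, those farthest from 0, and genes called between times. In a list a gene is represented by its tested probe with the highest mean level. Members, lists and tests were chosen with earlier results of these data known. The fit was tested on simulated data with known changes. Alternatives were another block, normalization, offset, filter, weights, the authors' log2 values and leaving out each letter.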

Additional observations from a re-analysis of the deposited data

Results flagged for a closer look

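These genes had an effect of 4-OHT at 18 h that differed from the effect at another time by a test of the difference itself (limma, adjusted over all probes tested). The effect at 18 h minus that at 12 h was 2.15 for Gpr17, 1.83 for Ftdc1, and 1.52 and 1.37 for 2 probes of Lims2. The effect at 48 h minus that at 18 h was 2.07 for Dpp10, 1.72 for Ccn2, 1.2 for Slc24a3, 1.05 for Moxd1 and -2.25 for Id2. In the labels all arrays of 12 h belong to another series of array numbers than those of 18 h, so time and series cannot be told apart in the first set.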

How the results depend on the processing

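At 18 h 136 probes were called. Without the replicate block there were 17, with median scaling 43, with no filter on dim probes 90, with array weights 496, with the 18 h arrays alone 72, and without 1 letter 56 to 76. The other alternatives gave 120 to 176 calls. Of the calls made without the block 64.7% were higher with 4-OHT, of those with the letters as the block 51.5%, of those with array weights 42.7%, and without A, B or C 47.4%, 66.1% and 71.4%. Of the 136 probes, 0 changed sign under any alternative. The effect at 18 h minus that at 12 h gave 4 calls, but 1 without the replicate block, with the authors' log2 values or with an offset of 50, 2 with median scaling or with no filter, 874 with array weights, 0 with both times fitted alone, and 0 to 5 without 1 letter. The effect at 24 h minus that at 18 h gave 0 calls, 3 with median scaling and 6 with array weights. The effect at 48 h minus that at 18 h gave 27 calls (66.7% higher), 3 without the replicate block, 42 with the array series as the block, 46 with median scaling (93.5% higher), 14 with no filter, 286 with array weights, and 4 to 19 without 1 letter. The cause of these changes was not tested, beyond the fewer arrays or the greater number of probes that some alternatives hold by construction. Of 344 gene list medians under alternatives, 36 moved by more than the spread between letters. The number of arrays, 3 a group and 2 a group at 144 h, limits the precision, and probes not above background give only a bound.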
